A study of Mus musculus with 8 samples.

Results

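Genes that oxidise foreign compounds, conjugate the products and pump them out of the cell were followed across the mouse rectum and colon. The set held 10 genes chosen by name: the cytochromes P450 Cyp3a13, Cyp3a44, Cyp2c55, Cyp2c65 and Cyp1a1, the sulfotransferases Sult1a1 and Sult1e1, the glutathione transferase Gsta4, and the efflux pumps Abcb1a and Abcg2. A named probe was found for 9 of the 10 genes, among 16309 genes named on the array, and all 9 passed the filter on dim probes that left 12718 genes. Cyp2c65 had no named probe and was not analysed here. The genes that were measured carried 11 probes, with a pair of probes each for Cyp3a44 and Abcg2, and the brightest probe stood for its gene.

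Cytochromes P450 and other phase I enzymes add or expose a reactive group on a fat-soluble compound. Sulfotransferases, UDP-glucuronosyltransferases and glutathione transferases then attach a polar group to it, and ATP-driven pumps move the parent compound or its conjugates across the membrane. The gut epithelium is a place of first contact with compounds in food and with bacterial products, and the nuclear receptors PXR (Nr1i2) and CAR (Nr1i3) and the aryl hydrocarbon receptor (Ahr) are the classical regulators of these genes.

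The study asked how isolation, a psychological stress, changed transcripts in the gut mucosa of mice with and without the cytokine interleukin-18. Its 8 groups were rectum of IL18ko stress, IL18ko control, WT stress and WT control mice, and colon of the same 4 kinds of mice, with IL18ko meaning interleukin-18 knockout and WT wild type. All were housed as 5 brothers to a cage from weaning until 10 to 12 weeks of age, when 3 brothers of a cage were moved to single cages as the stress groups. The isolation lasted 8 days by the design text and 16 days by the treatment protocol, and the controls were also described as taken before isolation. Colon mucosa came from 2.5 to 3.5 cm below the ileocecum and rectal mucosa from 7 mm from the anus. Each group was 1 Agilent one-colour array on RNA pooled from 5 mice, so the spread between mice of a group was not measured, and the labels do not say whether rectum and colon pools came from the same mice. Rectum and colon arrays were on separate slides, and effects of tissue and of slide cannot be told apart. Each mouse group also kept the same position on both slides, so the 4 mouse groups and slide position cannot be told apart.

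Levels below are log2 signals relative to the 75th percentile of the array, so that 0 is the 75th percentile and a step of 1 is a doubling of signal. They compare arrays for 1 probe and do not rank genes. Between 62.2% and 66.4% of spots were well above background on each array. Il18 itself was not well above background on any IL18ko array, at levels from -7.85 to -7.48, and was at 2.76 to 5.88 on the 4 WT arrays.

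Upstream sequence is shown for the genes whose signal separated the tissues most, Sult1e1, Cyp3a44 and Cyp2c55, and for Cyp1a1, the textbook target of the aryl hydrocarbon receptor. Each line gives the 250 bases before the annotated start in RefSeq (GRCm38.p6), read 5′ to 3′ on the strand of the gene. Sult1e1 (chr5:87591612-87591861) and Cyp3a44 (chr5:145805875-145806124) lie on the minus strand, and Cyp2c55 (chr19:39006769-39007018) and Cyp1a1 (chr9:57697363-57697612) on the plus strand. Capitals mark matches to the motifs searched on both strands: GCGTG, the core of the aryl hydrocarbon receptor element; AGGTCA and AGTTCA, nuclear receptor half-sites; GTTAAT, part of an HNF1 site; and TATAAA, the TATA box.
Sult1e1: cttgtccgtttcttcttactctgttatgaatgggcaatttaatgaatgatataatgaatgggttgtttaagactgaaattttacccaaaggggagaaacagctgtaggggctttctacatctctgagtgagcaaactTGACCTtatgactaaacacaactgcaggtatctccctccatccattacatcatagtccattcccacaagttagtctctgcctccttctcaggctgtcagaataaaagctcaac
Cyp3a44: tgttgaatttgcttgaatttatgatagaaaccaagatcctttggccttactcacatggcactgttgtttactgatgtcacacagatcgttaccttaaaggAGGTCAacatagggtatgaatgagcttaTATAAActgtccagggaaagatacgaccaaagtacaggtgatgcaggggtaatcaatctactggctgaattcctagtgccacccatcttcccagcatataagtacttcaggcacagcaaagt
Cyp2c55: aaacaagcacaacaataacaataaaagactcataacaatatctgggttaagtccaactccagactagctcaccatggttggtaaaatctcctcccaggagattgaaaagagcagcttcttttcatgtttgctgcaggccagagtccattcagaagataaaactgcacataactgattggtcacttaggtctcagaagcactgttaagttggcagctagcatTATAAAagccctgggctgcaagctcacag
Cyp1a1: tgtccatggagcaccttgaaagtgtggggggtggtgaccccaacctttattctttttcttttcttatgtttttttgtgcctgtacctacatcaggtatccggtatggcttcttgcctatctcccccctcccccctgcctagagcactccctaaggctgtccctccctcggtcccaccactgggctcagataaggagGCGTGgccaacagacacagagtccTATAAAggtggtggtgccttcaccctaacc
In the Cyp1a1 window GCGTG stood 54 to 50 bases and TATAAA 30 to 25 bases before the start, and in the Cyp2c55 window TATAAA stood 29 to 24 bases before it. Cyp3a44 held AGGTCA at 150 to 145 and TATAAA at 122 to 117 bases before its start, and Sult1e1 held AGGTCA on the opposite strand, read as TGACCT, at 113 to 108 bases. A promoter window was found for 9 of the 10 genes, all but Gsta4. GCGTG was in 1 of the 9, AGGTCA in 3 (Abcg2, Cyp3a44 and Sult1e1), AGTTCA in 1 (Abcb1a), GTTAAT in 1 (Sult1a1) and TATAAA in 4 (Cyp1a1, Cyp2c55, Cyp2c65 and Cyp3a44). Among all 32851 promoter windows the shares were 28.2% for GCGTG, 14.02% for AGGTCA, 11.8% for AGTTCA, 6.43% for GTTAAT and 12.4% for TATAAA. These shares are per window, while the counts of the set are per gene and Abcg2 has 3 windows. A match here is a string of letters and was not tested as a binding site.

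**Figure D1:**
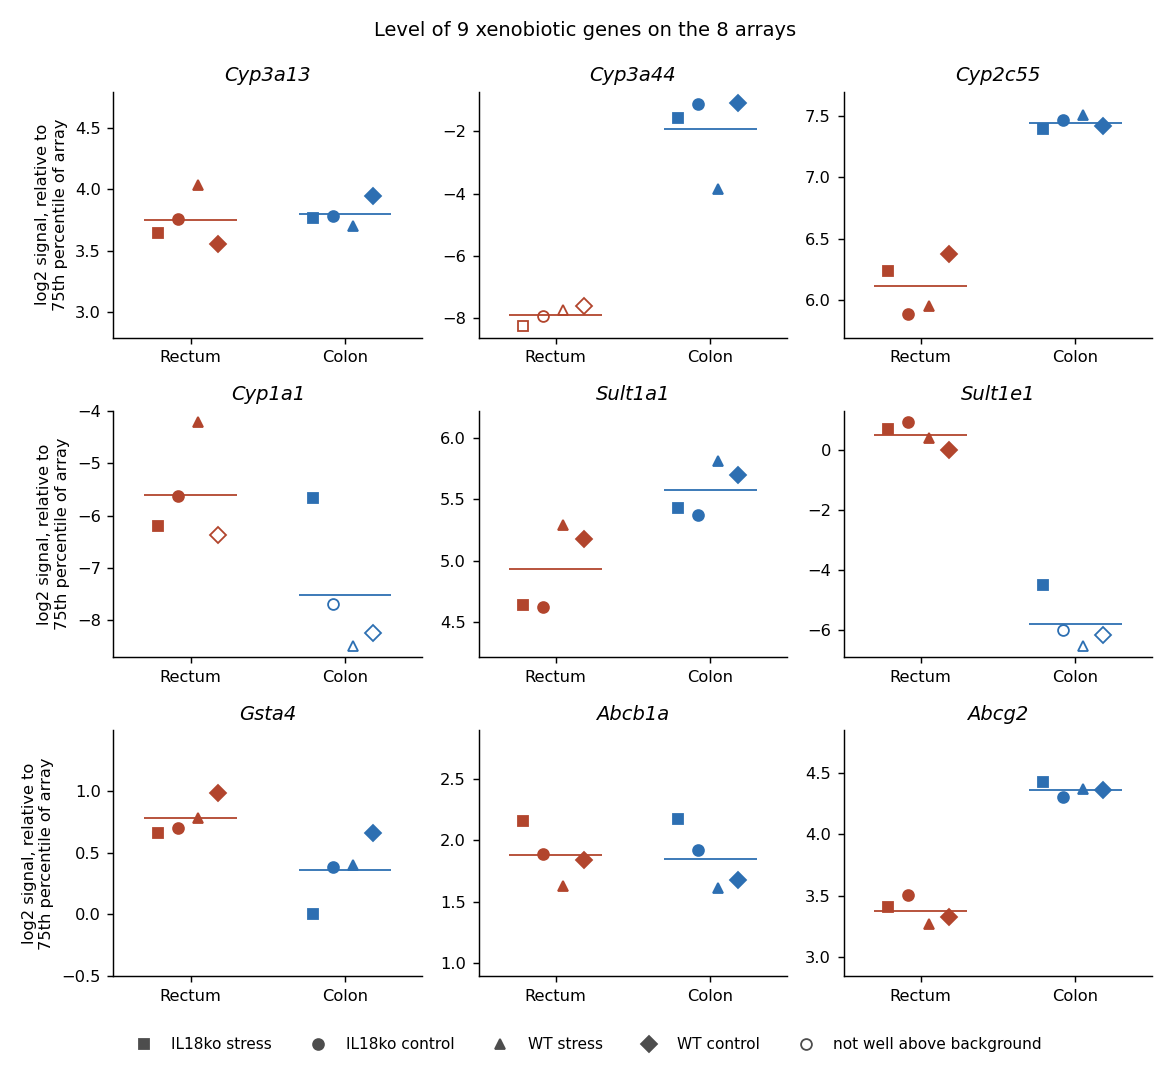
Level of the 9 measured genes on the 8 arrays, in log2 signal relative to the 75th percentile of the array, with rectum left of colon, 1 point per array and a line at the tissue mean. Open points were not well above background, as for Cyp3a44 on all 4 rectum arrays and Sult1e1 on 3 of the 4 colon arrays.

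Between rectum and colon, 6 of the 9 measured genes were called: Sult1e1 and Gsta4 were higher in rectum, and Cyp3a44, Cyp2c55, Abcg2 and Sult1a1 were lower. Cyp3a13, Abcb1a and Cyp1a1 did not pass. A difference was called at an adjusted p (limma on the rectum-minus-colon values of the 4 mouse groups, Benjamini-Hochberg over all 26265 tested probes) under 0.05. Of all tested probes 27.1% were called, 13.1% higher and 14.0% lower in rectum. The levels of the 6 called genes did not overlap between the 4 rectum and the 4 colon arrays, and those of the other 3 did. Of all tested probes 30.8% had levels that did not overlap between the tissues, and for Gsta4 the lowest rectum and the highest colon level were 0.6596 and 0.6594. In pooled tissue RNA, fewer cells of a type and less RNA per cell cannot be told apart. The values after ± are standard errors (SE) of the fit unless an SD is named.

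Among the P450s, Cyp3a44, a CYP3A enzyme known from female mouse liver, was at -8.26, -7.94, -7.73 and -7.62 in the rectum of IL18ko stress, IL18ko control, WT stress and WT control mice. In the colon of the same groups it was at -1.58, -1.12, -3.86 and -1.09. The probe was well above background on none of the rectum arrays and on all 4 colon arrays, and WT stress colon lay well under the other 3 colon arrays. Cyp3a44 was at least 18.7-fold lower in rectum, where the bound sets the colon mean against the lowest signals that counted as well above background on the rectum arrays. The measured difference was -5.97 ± 0.50 (adjusted p = 0.000389). It passed the filter through colon alone, so that a difference was built into its passing. The second Cyp3a44 probe was at -2.48, -1.96, -3.92 and -1.63 in colon and at least 12.5-fold lower in rectum, with WT stress colon again the lowest of the colon arrays. With another background correction (normexp) the Cyp3a44 difference shrank to -2.03 and was still called.

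The related Cyp3a genes were read from the same phase I list and picked for family after their values were seen. Cyp3a16 was at least 4.18-fold lower in rectum and Cyp3a41a at least 5.37-fold lower, each well above background on 0 of 4 rectum and 4 of 4 colon arrays. Both met the filter through colon alone, and a difference was built into their passing. Cyp3a25, not tested because only 3 colon arrays were above background, was at least 3.32-fold lower. Cyp3a11, a major hepatic CYP3A, was measured on all 8 arrays and its difference of -0.33 ± 0.21 did not pass (adjusted p = 0.281). These genes are close copies, and signal shared between their probes cannot be told apart from separate expression. In colon of WT stress mice all of them were at their lowest colon level: Cyp3a11 at -3.25 against -2.66 to -2.03 on the other 3 colon arrays, Cyp3a16 at -5.50 against -3.99 to -3.25, Cyp3a25 at -6.54 against -4.12 to -3.01, and Cyp3a41a at -4.61 against -3.52 to -3.32. That is a pattern of 1 array, with no replicate.

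Cyp3a13, the CYP3A form known from intestine and other tissues outside the liver, was measured on all 8 arrays. Its levels were 3.64, 3.76, 4.03 and 3.56 in rectum of IL18ko stress, IL18ko control, WT stress and WT control mice, against 3.76, 3.78, 3.70 and 3.95 in colon. The ranges overlapped, with the highest value in WT stress rectum and the lowest in WT control rectum. WT stress was the lowest of its colon arrays too, though IL18ko stress and IL18ko control were close (3.70, 3.76 and 3.78). The difference was -0.05 ± 0.13 (adjusted p = 0.807), with pairs from -0.39 to 0.33.

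Cyp2c55, an arachidonic acid oxidising P450 known from mouse colon, was at 6.24, 5.89, 5.95 and 6.37 in rectum and at 7.39, 7.46, 7.503 and 7.42 in colon, in the same order of mouse groups. All 4 rectum arrays lay at least 1 log2 step below all colon arrays, and the colon arrays differed little among themselves (SD 0.23 in rectum and 0.050 in colon). The difference was -1.33 ± 0.12, or 2.52-fold lower in rectum (adjusted p = 0.000529). Its relatives in the Cyp2c family, picked in the same way, went both ways. Cyp2c66 fell by 3.84 ± 0.13 and Cyp2c37 by 0.98 ± 0.19, Cyp2c39 was higher by 2.77 ± 0.20, Cyp2c40 by 1.91 ± 0.14 and Cyp2c29 by 0.995 ± 0.12, and Cyp2c70 (0.10 ± 0.14) did not pass. These genes too are close copies whose probes may share signal.

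Cyp1a1, which oxidises polycyclic aromatic compounds, was near the detection limit. It was at -6.19, -5.63, -4.21 and -6.36 in rectum of IL18ko stress, IL18ko control, WT stress and WT control mice, against -5.66, -7.69, -8.49 and -8.25 in colon. It was well above background on 3 of 4 rectum arrays (all but WT control) and on 1 of 4 colon arrays (IL18ko stress). The rectum arrays lay higher in 3 of the 4 mouse groups, and the ranges overlapped. The difference of 1.92 ± 0.71 did not pass (adjusted p = 0.0913), with pairs from -0.53 to 4.28, and without the IL18ko stress pair it was 2.74 and passed (adjusted p = 0.0148). It was 1.14 without the WT stress pair, 0.63 with a floor on low signals and 0.33 with normexp, and passed in none of these (adjusted p = 0.128, 0.309 and 0.163).

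**Figure D2:**
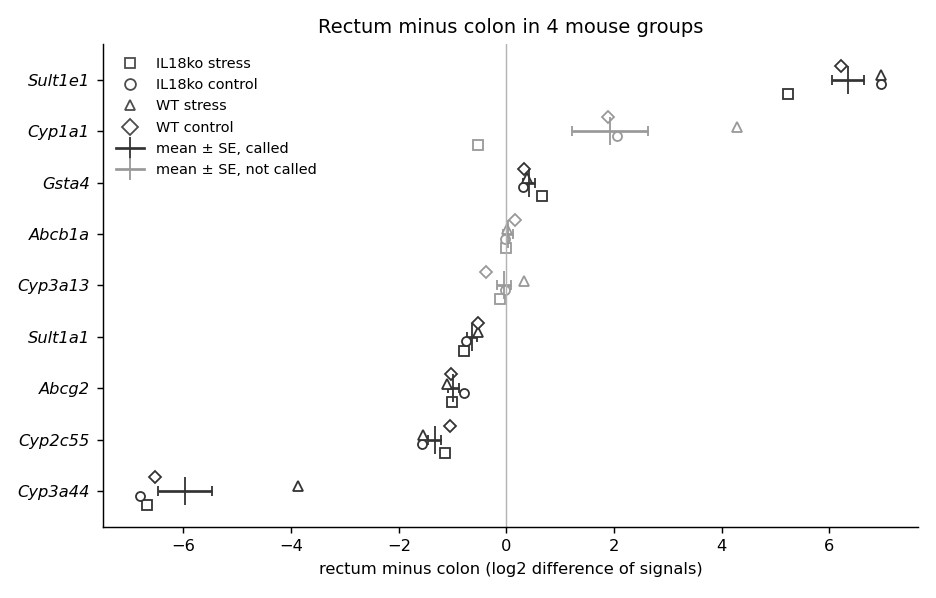
Rectum-minus-colon difference in log2 signal of the 9 measured genes, 1 open point per mouse group, with the mean ± SE of the 4 differences as bars, dark where called. Sult1e1 lies at 6.34 and Cyp3a44 at -5.97, and the other called genes lie between -1.33 and 0.42.

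Of the sulfotransferases, Sult1e1, which sulfates and inactivates oestrogens, had the highest rectum-minus-colon difference of the 9 genes. Its levels were 0.73, 0.94, 0.42 and 0.017 in rectum of IL18ko stress, IL18ko control, WT stress and WT control mice. The colon levels were -4.51, -6.02, -6.54 and -6.19, and only that of IL18ko stress was well above background. Every rectum array lay far above every colon array, and the pairs ran from 5.24 to 6.96. The difference was 6.34 ± 0.30 (adjusted p = 4.36e-05), 81.1-fold in measured signal, a size that is not exact with 3 of the 4 colon arrays not well above background. Of the 5 arrays on which it was well above background 4 were rectum arrays, so it too met the filter through the tissue where it was high, and a difference was built into its passing. With normexp it was 3.61 and still called.

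Sult1a1, a sulfotransferase of simple phenols, went the other way. It was at 4.64, 4.62, 5.29 and 5.18 in rectum and at 5.43, 5.37, 5.81 and 5.70 in colon, again for IL18ko stress, IL18ko control, WT stress and WT control mice. The difference was -0.65 ± 0.09, 1.57-fold lower in rectum (adjusted p = 0.00366), lower in 4 of 4 mouse groups. The WT rectum arrays came near to the IL18ko colon arrays, since the IL18ko arrays were the lower ones in both tissues.

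Gsta4, the glutathione transferase of lipid peroxidation products such as 4-hydroxynonenal, was at 0.66, 0.70, 0.79 and 0.99 in rectum and at 0.0035, 0.39, 0.40 and 0.66 in colon. The lowest rectum array was IL18ko stress and the highest colon array WT control. The difference of 0.42 ± 0.11, 1.34-fold, was called (adjusted p = 0.0312) and was positive in 4 of 4 mouse groups, from 0.31 to 0.66. It was lost when the WT control, the IL18ko control or the IL18ko stress pair was left out (adjusted p = 0.123, 0.119 and 0.113). Gsta1 (0.74 ± 0.09), Gsta2 (0.67 ± 0.09) and Gsta3 (1.20 ± 0.17), the relatives of Gsta4, were also called higher in rectum. They were picked for family after their values were seen, and close copies may share signal.

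The efflux pumps differed from each other. Abcg2, the breast cancer resistance protein that exports sulfate conjugates and dietary compounds, was at 3.40, 3.51, 3.27 and 3.33 in rectum and at 4.42, 4.30, 4.37 and 4.36 in colon. The groups were far apart against their spread, and the difference was -0.99 ± 0.10, 1.98-fold lower in rectum (adjusted p = 0.000695). Its second probe gave -1.09 ± 0.18, also called. Abcb1a, P-glycoprotein, was at 2.16, 1.89, 1.63 and 1.84 in rectum and at 2.17, 1.92, 1.61 and 1.68 in colon. Its levels followed the mouse group rather than the tissue, and the difference was 0.03 ± 0.09 (adjusted p = 0.828), with pairs from -0.03 to 0.16. The sister gene Abcb1b did not pass either (0.05 ± 0.09).

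**Figure D3:**
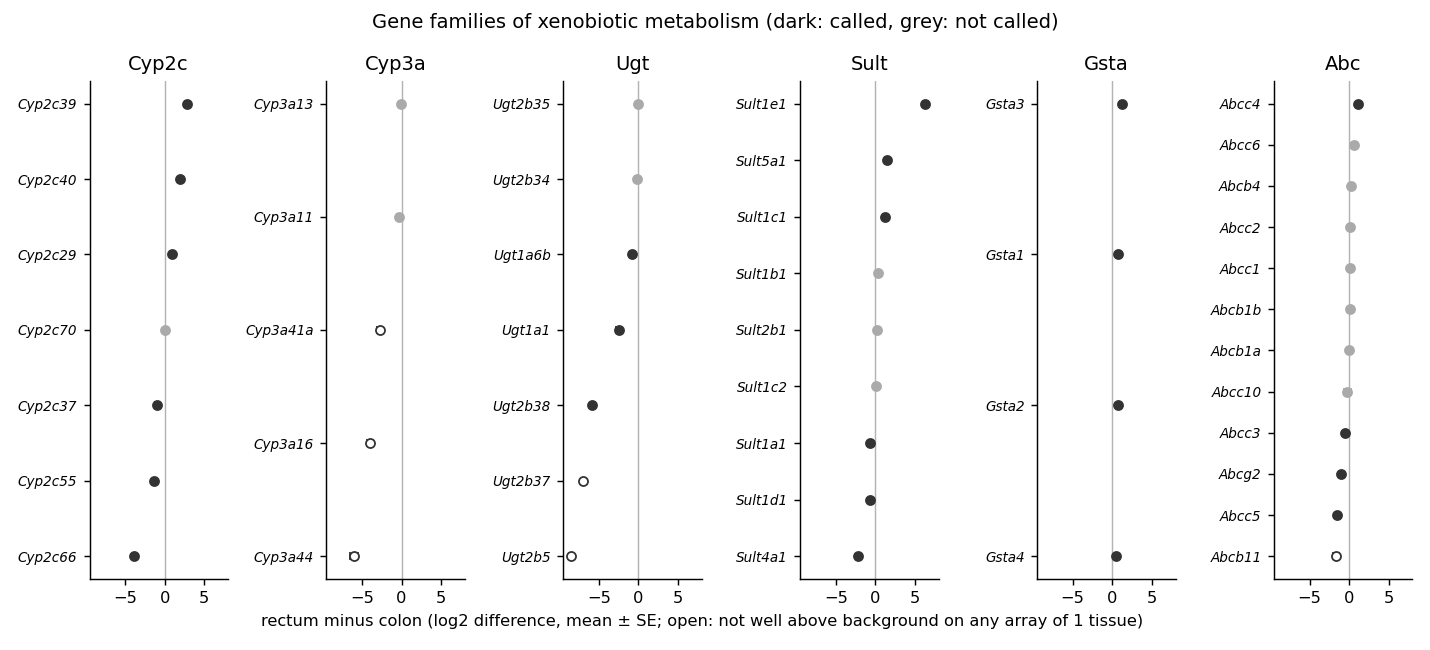
Rectum-minus-colon difference in log2 signal (mean ± SE over 4 mouse groups) for the tested list genes of the Cyp2c, Cyp3a, Ugt, Sult, Gsta and Abc families. Points are dark where called and open where 1 tissue had no array well above background. Cyp2c and Sult genes lie on both sides of 0, the called Cyp3a and Ugt genes lie below it and the Gsta genes above it.

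The set was placed among 6 wider lists of xenobiotic genes, 209 genes of which 171 were tested. In rectum 35 were higher, 55 lower and 81 did not pass, with a median difference of -0.05. Without the 9 measured genes the counts were 33, 51 and 78. Of the 12718 tested genes, 1794 were higher, 2014 lower and 8910 did not pass, with a median of 0.03. A gene well above background on no rectum array, or on no colon array, could pass the filter only through the other tissue. A difference was then built into its passing, and the counts here include such genes.

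Phase I oxidation (P450s and flavin monooxygenases) split evenly, with 12 of 36 tested genes higher, 11 lower and a median of 0.13. Next to Cyp2c39, Cyp2f2, a P450 best known from lung, rose by 4.15 ± 0.23 and Fmo1, a flavin monooxygenase, by 2.45 ± 0.16. Beside Cyp2c66, the fatty acid hydroxylases Cyp4b1 and Cyp4f14 fell by 3.06 ± 0.12 and 1.70 ± 0.10. Cyp2b10, the classical target of CAR, was at least 3.88-fold higher in rectum and on no colon array well above background. It could meet the filter through rectum alone. The other phase I enzymes were lower more often, 15 of 36 against 3 higher, with a median of -0.40. The carboxylesterase Ces1f fell by 3.19 ± 0.13, the retinaldehyde dehydrogenase Aldh1a1 by 2.15 ± 0.10 and the aldo-keto reductase Akr1c18 by 1.87 ± 0.19, while the alcohol dehydrogenase Adh1 rose by 1.72 ± 0.08, the mitochondrial Aldh2 by 1.29 ± 0.19 and Akr1b3 by 0.52 ± 0.13.

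Sulfation and glucuronidation genes were lower in 11 of 20 and higher in 4, with a median of -0.65. Besides Sult1e1 the higher ones included Sult5a1 (1.498 ± 0.28) and Sult1c1 (1.19 ± 0.18). Ugt2b38 fell by 5.86 ± 0.16, the bilirubin transferase Ugt1a1 by 2.50 ± 0.28 and Sult4a1 by 2.17 ± 0.21. Mean levels of Ugt2b38 in rectum (-5.23) and of Sult5a1 in colon (-5.69) were low. The lowest signals that counted as well above background were -6.44 to -5.92 on the arrays, so these 2 sizes are not exact. Ugt2b5 was at least 94.8-fold and Ugt2b37 at least 78.1-fold lower, with no rectum array well above background. They could meet the filter through colon alone, so that a difference was built into their passing. The UDP-glucuronosyltransferases Ugt2b34 (-0.16 ± 0.10) and Ugt2b35 (-0.03 ± 0.11) did not pass. Ugdh, which makes UDP-glucuronic acid, fell by 0.88 ± 0.08. Of the enzymes that make the sulfate donor PAPS, Papss1 rose by 0.52 ± 0.09 and Papss2 fell by 0.65 ± 0.13.

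Glutathione and other conjugation genes were higher in 8 of 33 and lower in 5, with a median of 0.18. The indole methyltransferase Inmt rose by 2.40 ± 0.19, and Gstk1, Ggt1 and Mgst2 fell by 1.30 ± 0.13, 0.98 ± 0.27 and 0.71 ± 0.11. The Ggt1 pairs ran from -1.60 to -0.17. Transporters were lower in 9 of 22 and higher in 3, with a median of -0.28. The peptide carrier Slc15a1 rose by 3.28 ± 0.15, the conjugate pump Abcc4 by 1.17 ± 0.24 and the prostaglandin carrier Slco2a1 by 0.97 ± 0.17. The cation exporter Slc47a1 fell by 3.47 ± 0.36 and the organic anion carrier Slco4a1 by 1.97 ± 0.12. The rectum arrays of Slc47a1 were low and spread widely (mean -4.74, SD 1.32).

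Regulators were higher in 5 of 24 and lower in 4, with a median of 0.04. CAR (Nr1i3) rose by 1.33 ± 0.15, the coactivator Ppargc1a by 0.87 ± 0.19 and PXR (Nr1i2) by 0.73 ± 0.16. The fatty acid receptors Ppara and Pparg fell by 1.40 ± 0.16 and 1.28 ± 0.11, and Nfe2l2, the oxidative stress factor NRF2, by 0.72 ± 0.18. The Nfe2l2 pairs ran from -1.045 to -0.0065. Ahr (0.40 ± 0.23), its repressor Ahrr (0.19 ± 0.27) and Hnf4a (0.21 ± 0.10) did not pass.

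**Figure D4:**
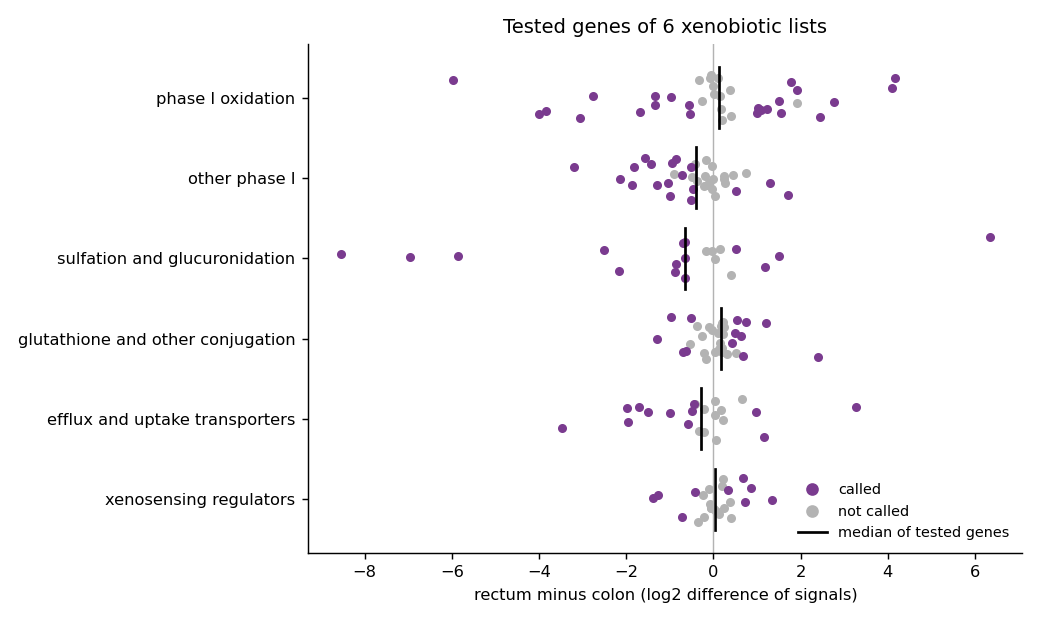
Rectum-minus-colon difference in log2 signal of each tested gene of the 6 xenobiotic lists, purple where called, with a black line at the median of each list. The medians run from -0.65 for sulfation and glucuronidation to 0.18 for glutathione and other conjugation.

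Cell type markers also moved with tissue. Of the absorptive colonocyte markers, 6 of 17 were higher and 7 lower in rectum, with a median of -0.05 and a summed level of 10.47 to 10.59 in rectum and 10.79 to 10.99 in colon. Goblet cell markers were lower in 7 of 10 and higher in none, with a median of -1.40 and a summed level of 9.62 to 9.91 in rectum and 10.4 to 10.5 in colon. Skeletal muscle markers were higher in 9 of 16, with a summed level of 5.98 to 7.97 in rectum and 3.18 to 3.73 in colon, while immune cell markers were higher in 8 of 15 and lower in 2 although their summed level was the lower one in rectum, at 2.29 to 3.42 in rectum and 3.92 to 4.90 in colon. Squamous markers were higher in 5 of 10 and lower in 1. Their summed levels overlapped, at 6.30 to 6.56 in rectum and 6.24 to 6.36 in colon. Of the 19 on the array, 4 (Dsg3, Dsc3, Ivl and Sprr1b) were above background on no array of either tissue. Adipocyte markers were lower in 7 of 11, with summed levels that overlapped, at 4.71 to 6.0 in rectum and 5.71 to 6.55 in colon. Smooth muscle markers were called in 0 of 10. The liver list held 2 higher and 1 lower of 7. Its summed level was 3.37 to 3.58 in rectum and 2.48 to 2.81 in colon, with Fgb above background on no array. The liver list includes Cyp2c29, Cyp3a11 and Cyp2e1, and the adipocyte list Pparg, which are also reported here as xenobiotic genes. The part of the marker shifts in the differences of the xenobiotic genes was not tested.

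IL18ko and WT mice were compared through 4 matched pairs, 1 for each tissue and housing. The labels do not say whether the rectum and colon pairs came from the same mice, so the 4 pairs may not be independent. None of the 9 measured genes was called by limma, and 0.0495% of all tested probes were (13 of 26265, with 4285 at an unadjusted p under 0.05). Among the 171 tested genes of the 6 lists none was called.

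Sult1a1 was lower in IL18ko mice in 4 of 4 pairs: 4.64 in IL18ko against 5.29 in WT stress rectum, 4.62 against 5.18 in control rectum, 5.43 against 5.81 in stress colon and 5.37 against 5.70 in control colon. The pair differences were close to each other, from -0.65 to -0.33, with a mean of -0.48 ± 0.10 (unadjusted p = 0.00228 and adjusted p = 0.194, limma). It was called when the pair of stress rectum arrays was left out (adjusted p = 0.0281), a fit that called 2575 probes. It was also called in a fit to the 4 tissue means (adjusted p = 0.0148), which called 3043 probes. It was not called by limma without the stress colon, control colon or control rectum pair (adjusted p = 0.338, 0.467 and 0.659).

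Abcb1a was higher in IL18ko mice in 4 of 4 pairs, at 1.89 to 2.17 on the 4 IL18ko arrays and 1.61 to 1.84 on the 4 WT arrays. These ranges did not overlap, as for 8.01% of all tested probes, and the mean of 0.34 ± 0.12 did not pass (adjusted p = 0.260). Gsta4 was lower in IL18ko mice in 4 of 4 pairs, from -0.40 to -0.13, with a mean of -0.27 ± 0.11 (adjusted p = 0.283). Sult1e1 was higher in 4 of 4 pairs, from 0.17 to 2.03, with a mean of 0.86 ± 0.31 (adjusted p = 0.257), and it was called in the fit to tissue means (adjusted p = 0.00647). Its largest pair was stress colon, where the WT array was not well above background. Its smallest was control colon, where neither array was, so only the rectum pairs rest on detected signal on both sides.

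Cyp3a13 (-0.07 ± 0.12), Cyp2c55 (-0.07 ± 0.14), Abcg2 (0.08 ± 0.10), Cyp3a44 (0.35 ± 0.47) and Cyp1a1 (0.53 ± 0.70) had pairs on both sides of 0. For Cyp3a44 the pair of stress colon arrays stood at 2.28 and the others at -0.53 to -0.04, and for Cyp1a1 the pairs ran from -1.98 to 2.83. Gsta4 and Cyp1a1 lie on chromosome 9, as does Il18, with 200 and 67 tested genes between each and Il18. Among markers of other cells, 11 of 11 adipocyte markers had a positive IL18ko-minus-WT difference (median 1.35), as did 10 of 10 smooth muscle markers (median 0.55) and 93.75% of 16 skeletal muscle markers (median 1.03), with none of these lists' genes called. Their part in the Abcb1a and Sult1a1 values was not tested.

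**Figure D5:**
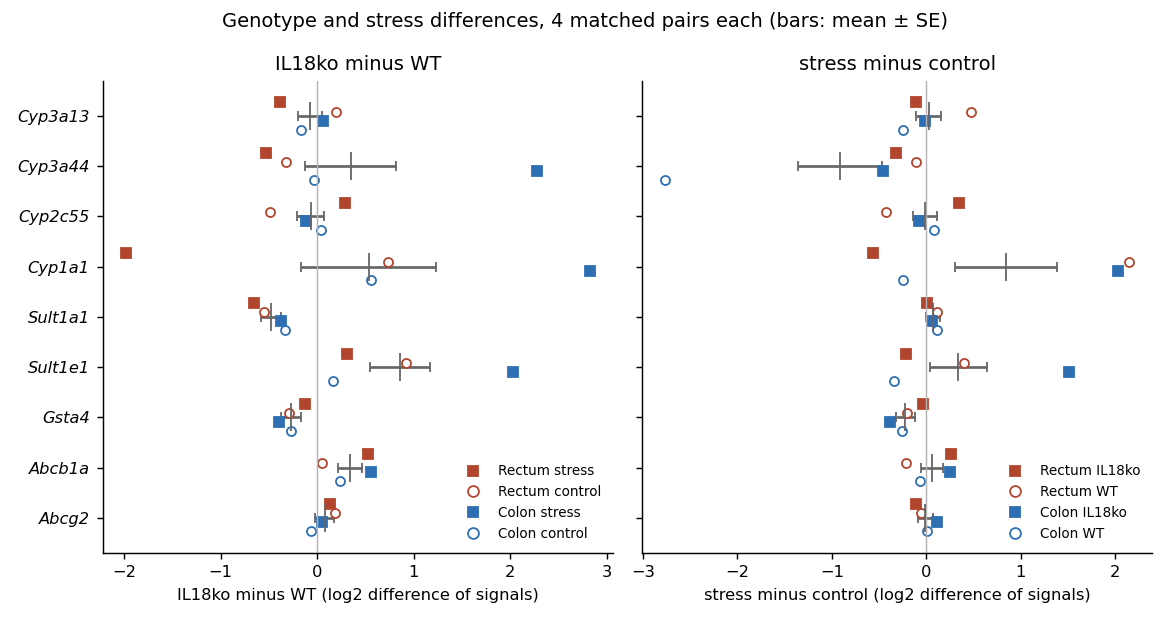
IL18ko-minus-WT (left) and stress-minus-control (right) differences in log2 signal of the 9 measured genes, 1 point per matched pair (rectum red, colon blue) and the mean ± SE as bars. All 4 genotype pairs lie below 0 for Sult1a1 and Gsta4 and above 0 for Abcb1a and Sult1e1, and none of the means was called. Both colon pairs of Sult1e1 include arrays that were not well above background.

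Stress and control arrays were also compared through 4 matched pairs, and none of the 9 genes was called. These rectum and colon pairs too may come from the same mice and may not be independent. Of all tested probes 0.0% were called by limma (0 of 26265, with 1021 at an unadjusted p under 0.05). The estimates for Abcg2 (-0.01 ± 0.08), Cyp2c55 (-0.02 ± 0.13), Cyp3a13 (0.03 ± 0.13), Abcb1a (0.06 ± 0.11) and Sult1a1 (0.07 ± 0.07) were all within 1 SE of 0. Gsta4 was lower in stress in 4 of 4 pairs, from -0.38 to -0.04, with a mean of -0.22 ± 0.10 (adjusted p = 0.864). Cyp3a44 was also lower in 4 of 4 pairs, with a mean of -0.91 ± 0.45 (adjusted p = 0.864), of which the WT colon pair gave -2.77 and the other 3 pairs -0.45 to -0.11. The rectum pairs of Cyp3a44 compared arrays that were all not well above background.

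Sult1e1 (0.34 ± 0.30) and Cyp1a1 (0.84 ± 0.54) had stress pairs of both signs. IL18ko stress colon was the single colon array on which either gene was well above background, and it set their largest colon pairs, 1.52 for Sult1e1 and 2.03 for Cyp1a1. In rectum the WT stress array was the highest for Cyp1a1, 2.15 above WT control, and the IL18ko stress array was 0.56 below IL18ko control.

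Whether the genotype or stress difference itself differed between rectum and colon was tested on the 4 rectum-minus-colon differences. None of the 9 genes was called for genotype, where 0.43% of tested probes were, nor for stress, where 0.19% were. These fits had 1 residual degree of freedom and their error came from variance shared across probes. For Cyp1a1 the genotype difference in rectum minus that in colon was -2.32 ± 0.75 (unadjusted p = 0.00206, adjusted p = 0.263), and it was called in the fit without a variance trend (adjusted p = 0.00159). It was -1.19 with a floor on low signals and -0.49 with normexp, and was called in neither. For Cyp3a44 the same value was -1.55 ± 0.60 for genotype (adjusted p = 0.732) and 1.40 ± 0.60 for stress (adjusted p = 0.9999), and both include the low WT stress colon array. With normexp that stress value was 1.22 (adjusted p = 0.00481). Among the list genes 1 was called for genotype, the ethanol-oxidising Cyp2e1 (1.78 ± 0.47, adjusted p = 0.0382). Its IL18ko and WT levels were -1.01 and -3.93 in stress rectum, -1.39 and -3.34 in control rectum, -0.64 and -2.17 in stress colon, and -0.86 and -0.64 in control colon. In the same test 12 of 16 skeletal muscle markers were called higher (median 3.87), as were 2 of 11 adipocyte markers (median 1.19) and 2 of 10 squamous markers, and their part in the Cyp2e1 value was not tested.

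Across the 8 arrays the 6 genes well above background on every array fell into different patterns. Cyp2c55 and Abcg2 had a Pearson correlation of 0.958, and Gsta4 and Abcg2 one of -0.781, as descriptions over 8 arrays that share slides, tissues and mouse groups. Abcb1a had a correlation of -0.02 with Abcg2 and -0.05 with Cyp2c55. The genes named next are the 2 highest of 11789 for each gene, and such a search over 8 arrays finds high values by chance too. A step between rectum and colon can also give a high value, and 30.8% of tested probes did not overlap between the tissues. Whether these genes are expressed together was not tested. Among 11789 genes above background on all arrays, the most alike were Tead2 and Prnp for Abcg2 (0.997 each), Spib and Apol9b for Cyp2c55 (0.994 and 0.993), Mcrip2 and Smdt1 for Sult1a1 (0.990 and 0.988), Cr1l and Snora69 for Gsta4 (0.987 and 0.986), Fbxo33 and Sumf1 for Cyp3a13 (0.970 and 0.950), and Kank2 and Prdm6 for Abcb1a (0.963 and 0.938).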

How the data were processed

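The deposited scanner files hold 1 background-corrected, dye-normalized signal intensity per spot (Agilent G4122F, 1 colour), made with Feature Extraction 9.5.1.1 per the file headers, on a linear scale and written to 3 significant digits. The deposited value table holds, per the labels, each array's linear ratio over colon of WT controls for 18330 features; its log2 correlated with the ratio from the scanner files at 0.995 to 1 over 18277 probes. How the authors scaled arrays is not given in the sources used here.

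Outlier spots were removed and spots averaged per probe (40963 of 41174 probes kept, 22857 named through their transcript accession with RefSeq tables of GRCm38.p6). Levels were log2 signal minus the array's 75th percentile, and tests took in probes that Feature Extraction marked as well above background on 4 or more of the 8 arrays. Tests used limma 3.58.1 in R 4.3.3: an intercept fitted to 4 matched-pair differences with the variance trended on mean level, and for the dependence on tissue the 4 rectum-minus-colon differences fitted on genotype and housing, all with Benjamini-Hochberg adjustment over 26265 probes. The variance is partly shared across probes, so an SE may be under that of the pairs alone. In simulated data 200 of 26265 probes were changed. For the tissue comparison, 83% of changes of 1 log2 unit and 99% of those of 2 were found. These shares were 76% and 98% for genotype, 77% and 100% for stress, and 5% and 57% for the dependence on genotype. The simulated pairs had independent noise and far fewer changed probes than the tissue comparison called, so the shares in the data may differ.

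The member genes, the lists, the markers and the tests were chosen with earlier results of these data known. Genes named from the 6 lists were the 3 highest and 3 lowest called in the tissue comparison with 1 direction in 4 of 4 pairs and at least 1 array well above background in each tissue, of which 1 is not reported here; relatives of the members, other enzymes of sulfation and glucuronidation, Cyp2b10, Ahr, Ahrr and Hnf4a were added after values were seen. Alternatives changed the normalization, background correction, filter, floor on low signals, variance trend, probe rule, source of values, block and the pairs used.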

Additional observations from a re-analysis of the deposited data

Results flagged for a closer look

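The rectum-minus-colon difference of Cyp3a44 was -3.871 in WT stress mice, and the other 3 mouse groups lay from -6.815 to -6.531. The gap to the nearest of them was 0.904 of the whole range of the 4 differences, above Dixon's 95% critical value for 4 values. The stress-minus-control difference of Cyp3a44 in WT colon was -2.768, against -0.454 to -0.108 in the other 3 pairs, with a gap of 0.87 of the range. Both values rest on the same array, WT stress colon. Chance flags about 1 in 20 such sets, and 27 sets of 4 differences were examined.

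The stress-minus-control difference of Abcb1a was positive in IL18ko mice (0.256 in colon and 0.267 in rectum) and negative in WT mice (-0.0654 in colon and -0.209 in rectum), so that the means of the genotypes were 0.398 apart. This difference between genotypes was not tested. It was found by a search for opposite signs over the stress and genotype differences of all measured genes, and such a search also flags genes by chance.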

How the results depend on the processing

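Of the tissue differences of the 9 genes, those of Sult1e1, Cyp3a44, Cyp2c55, Abcg2 and Sult1a1 kept their direction and their call under every alternative that could test them. The lowest and highest counts with 1 pair left out were 3480 (without the WT control pair) and 10575 (without the WT stress pair) probes for tissue, 3 and 2575 (without the stress rectum pair) for genotype, and 1 and 2 members called higher in rectum. Gsta4 was lost without the WT control, IL18ko control and IL18ko stress pairs (0.452, 0.457 and 0.342), and without the last of these Cyp1a1 was called beside Sult1e1. With probes above background on all 8 arrays, 1 member was called higher, since Sult1e1 was not tested, and the counts were 7 for genotype, 46 for its dependence on tissue and 11 for that of stress. The main counts were 113 and 50 for the dependence on tissue of genotype and of stress. They became 30 and 8 from the deposited ratios, 396 and 247 with no filter, 199 and 93 without a variance trend, and the count for stress was 33 with normexp. The fit to 4 tissue means, which leaves 1 residual degree of freedom, called 3043 probes for genotype and 23 for stress.

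Without the matching of pairs (no replicate block, 8 arrays as independent) 8328 probes were called for tissue, 32 for genotype and 0 for stress (905 at an unadjusted p under 0.05), and no member changed its call. Each group holds 1 array, so the pairs are matched by group and not by replicate number.

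Values that changed sign were all uncalled. With all pairs, Cyp3a13 changed sign for tissue with median centring (0.00035) and for stress with quantile normalization (-0.024), Cyp2c55 for genotype with quantile normalization (0.057), Cyp1a1 for genotype with normexp (-0.0051) and with a floor on low signals (-0.253), and Abcg2 for stress from the deposited ratios (0.0029). The dependence of the Cyp1a1 stress difference on tissue became 0.219 with normexp and 0.398 with the floor. With 1 pair left out, the tissue difference of Cyp3a13 ran from -0.178 to 0.0612 and that of Abcb1a from -0.00902 to 0.0534. The genotype difference ran from -0.163 to 0.0324 for Cyp3a13, from -0.297 (without the stress colon pair) to 0.639 for Cyp3a44, from -0.187 to 0.0720 for Cyp2c55 and from -0.231 to 1.37 for Cyp1a1. The stress difference ran from -0.124 to 0.115 for Cyp3a13, from -0.138 to 0.121 for Cyp2c55, from -0.0506 to 0.570 for Sult1e1, from -0.00599 to 0.152 for Abcb1a and from -0.0527 to 0.0221 for Abcg2. The causes of these changes were not tested. Signals near background limit Cyp1a1 in both tissues, Cyp3a44 in rectum and Sult1e1 in colon.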
